A study of Mus musculus with 12 samples.

Results

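The genes described here encode the enzymes of the first steps of glycolysis and the enzymes that tune them: the hexokinases Hk1, Hk2 and Hkdc1, the isomerase Gpi1, the phosphofructokinases Pfkl, Pfkm and Pfkp, and the bifunctional enzymes Pfkfb2, Pfkfb3 and Pfkfb4. They were chosen by gene symbol, and all 10 were found among the 32285 genes of the count table. RNA was sequenced from nucleus pulposus, the soft centre of each intervertebral disc, dissected from the tails of 6 Opa1cKO mice and 6 WT mice, with 1 library from each mouse. The series asks what deletion of Opa1, whose product fuses inner mitochondrial membranes, does to the transcriptome of this tissue.

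Opa1cKO mice lost Opa1 at 3 months through AcanCre, a Cre recombinase switched on by tamoxifen and driven by the aggrecan gene, which disc cells and chondrocytes express, and were studied 9 months later. WT mice were the genotype control. Both genotypes were 12 months old, had a C57BL/6-129/SvEv background and had received tamoxifen at 100 mg/kg on 3 successive days. Each library holds RNA of all the cells dissected, including any that kept Opa1. The labels do not say whether WT mice carried AcanCre or unrecombined Opa1 alleles.

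Hexokinase traps glucose in the cell by adding a phosphate, Gpi1 turns glucose phosphate into fructose phosphate, and phosphofructokinase adds another phosphate in the step that commits the sugar to glycolysis. PFKFB enzymes both make and remove fructose bisphosphate of a separate kind that is not an intermediate of the pathway but a strong activator of phosphofructokinase. The nucleus pulposus has almost no blood supply and lives largely on glycolysis, and in many cells Hk2, Pfkfb3 and Pfkfb4 are targets of hypoxia-inducible factor, the transcription factor that accumulates when oxygen is low.

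Promoter windows are shown for Hk2 and Pfkfb3, the hexokinase and the PFKFB gene that fell, and for Pfkfb4, a PFKFB gene that did not pass the test. Each window is RefSeq sequence of GRCm38.p6 (the assembly also called mm10), 300 bases long, with 250 bases before and 50 after an annotated transcription start, written 5′ to 3′ on the strand of the gene. Capitals mark ACGTG or GCGTG, the core letters of the hypoxia response element, on either strand; on the opposite strand these read CACGT or CACGC. The Hk2 window lies at chr6:82774405-82774704 and the Pfkfb4 window at chr9:108991652-108991951, on the minus and plus strands. Pfkfb3 has an upstream start at chr2:11553880-11554179 and a downstream start at chr2:11502041-11502340, both on the minus strand.
Hk2: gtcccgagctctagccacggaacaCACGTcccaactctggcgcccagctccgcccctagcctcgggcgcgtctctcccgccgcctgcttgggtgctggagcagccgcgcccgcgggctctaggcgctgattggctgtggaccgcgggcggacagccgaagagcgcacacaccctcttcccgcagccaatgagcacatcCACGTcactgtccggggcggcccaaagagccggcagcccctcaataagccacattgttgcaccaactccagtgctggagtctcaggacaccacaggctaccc
Pfkfb3 upstream start: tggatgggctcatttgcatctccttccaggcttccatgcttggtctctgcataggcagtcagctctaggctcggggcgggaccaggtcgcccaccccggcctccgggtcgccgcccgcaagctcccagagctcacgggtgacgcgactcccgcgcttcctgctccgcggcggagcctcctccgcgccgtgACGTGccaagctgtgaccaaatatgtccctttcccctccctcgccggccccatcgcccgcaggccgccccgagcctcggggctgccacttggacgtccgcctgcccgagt
Pfkfb3 downstream start: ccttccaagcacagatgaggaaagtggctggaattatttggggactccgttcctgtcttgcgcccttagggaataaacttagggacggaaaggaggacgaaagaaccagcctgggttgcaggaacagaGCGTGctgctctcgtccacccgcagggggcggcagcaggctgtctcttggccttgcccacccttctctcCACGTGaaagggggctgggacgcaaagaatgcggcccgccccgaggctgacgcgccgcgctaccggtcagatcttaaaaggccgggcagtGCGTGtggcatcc
Pfkfb4: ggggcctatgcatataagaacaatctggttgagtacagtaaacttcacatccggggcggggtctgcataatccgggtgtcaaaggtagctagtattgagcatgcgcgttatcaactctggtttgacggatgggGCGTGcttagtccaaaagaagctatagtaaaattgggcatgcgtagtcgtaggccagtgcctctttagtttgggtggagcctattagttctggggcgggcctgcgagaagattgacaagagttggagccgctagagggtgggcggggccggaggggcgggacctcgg

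The Hk2 window holds ACGTG at 2 places, on the opposite strand, at positions -226 and -52 relative to the start. The downstream Pfkfb3 window holds the palindrome CACGTG (an E-box, which contains ACGTG on both strands) and GCGTG at 2 places. The Pfkfb4 window holds GCGTG at 1 place. All 10 genes had at least 1 window, 17 in all, and 14 of those windows held ACGTG or GCGTG, as did 43.8% of all 32851 promoter windows; ACGTG alone was in 19.6%, GCGTG in 32.4% and CACGTG in 7.15%. Of the genes described below as lower in Opa1cKO, Hk2, Pfkl, Pfkp and Pfkfb3 had such letters and Gpi1 did not, and the genes that did not pass, Hk1, Pfkm, Pfkfb2 and Pfkfb4, had them in at least 1 window. Gene counts do not show which start was used. Some windows of Pfkm and of Pfkfb2 overlap, so the 17 windows are not all separate. The 43.8% is a share of windows and not of genes, and 14 of 17 was not tested against it.

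Library totals ran from 37268242 to 56618266 counts. Opa1 stood at 30.2, 40.8 and 47.7 CPM (lowest, median and highest) in Opa1cKO libraries, against 69.3, 108 and 118 CPM in WT libraries, without overlap (log2 fold change -1.22, SE 0.116, edgeR adjusted p = 3.05e-05). CPM values are counts scaled to the size of each library with TMM factors. The labels gave 4 female and 2 male WT mice and 2 female and 4 male Opa1cKO mice. Xist and Y-linked reads went against the labelled sex in 4 libraries, Opa1cKO 4 and WT 4, 5 and 6, so results are also given without them. By these reads Opa1cKO 1, 2 and 3 and WT 4 were male and the others female. Leaving out the 4 keeps 5 Opa1cKO and 3 WT libraries. All 3 of those WT libraries are female, while Opa1cKO 1, 2 and 3 are male. Sex and genotype are thus partly confounded, more so without the 4 libraries. The 12 notochordal and nucleus pulposus markers listed, most of the sum being Car3 and Acan, came to 45200 to 56490 CPM in Opa1cKO and 46290 to 59930 CPM in WT, and T, Krt8, Krt19 and Cd24a had genotype means of 1516 to 3603 CPM. Shh averaged 0.925 CPM in Opa1cKO and 0.679 CPM in WT, and Foxa1 and Foxa2 averaged 5.51 and 3.15 CPM in Opa1cKO and 7.23 and 6.87 CPM in WT. Of the 12, Cdh2 was lower in Opa1cKO (log2 fold change -0.43, edgeR adjusted p = 0.0137), a call lost without the 4 sex-mismatched libraries (-0.38, edgeR adjusted p = 0.243). DESeq2 called 3 of the 12 lower and none higher (7.42% and 7.81% of all genes). At an unadjusted edgeR p below 0.05, 4 were lower and 1 higher (11.7% and 13.6% of all genes). Acan was at -0.53 and Col2a1 at 1.14, and neither passed (edgeR adjusted p = 0.103 and 0.109). Markers of endothelium, red blood cells and adipocytes summed to less than 3 CPM in every library. Those of hypertrophic cartilage and bone, nearly all of it Spp1 (also called osteopontin), summed to 7403 to 13660 CPM in Opa1cKO and 5129 to 9150 CPM in WT, with Bglap, Bglap2 and Dmp1 at or near 0. Col10a1 averaged 5.55 CPM in Opa1cKO and 1.32 CPM in WT (log2 fold change 2.05, edgeR adjusted p = 0.192). Ibsp averaged 0.330 CPM in Opa1cKO and 0.989 CPM in WT (-1.56, edgeR adjusted p = 0.2585). None of the 3 tested passed, and 1 was higher at an unadjusted edgeR p below 0.05, as were 13.6% of all genes. Markers of annulus and tendon fibroblasts ran from 250.3 to 512 CPM in Opa1cKO and from 169.7 to 355 CPM in WT. Keratinocyte markers, mostly Krtdap, ran from 11.2 to 43.3 CPM in Opa1cKO and from 6.36 to 18 CPM in WT. Krtdap was higher in Opa1cKO (log2 fold change 1.52, edgeR adjusted p = 0.0271), and at 1.55 did not pass without the 4 sex-mismatched libraries (edgeR adjusted p = 0.191); Krt5, Krt14 and Krt1 were at or near 0. Of the macrophage and leukocyte markers Ptprc and Adgre1 were near 0. Among the 4 tested, Cd68 was higher in Opa1cKO (log2 fold change 1.28) and Csf1r and Cd163 were lower (-0.88 and -3.98). Over all tested genes edgeR called 5.1% higher and 5.13% lower. Csf1r did not pass without the 4 sex-mismatched libraries (edgeR adjusted p = 0.128). The 6 markers summed to 96.4 to 117 CPM in Opa1cKO and 103 to 196 CPM in WT. The part of these cells in the results below was not tested.

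In Opa1cKO nucleus pulposus, each isoform family held 1 gene that fell steeply and at least 1 that did not pass the test. Pfkl, Hk2 and Pfkfb3 fell to 0.533, 0.502 and 0.373 of the WT level, Gpi1 and Pfkp fell to 0.678 and 0.689, and Hk1, Pfkm, Pfkfb2 and Pfkfb4 did not pass. Of the 10 genes, 9 had enough counts to be tested, all but Hkdc1. Among them 5 were lower and none was higher at an adjusted p below 0.05 (edgeR's quasi-likelihood test of genotype with labelled sex, Benjamini-Hochberg adjustment over 15229 genes). Over all genes tested 5.13% were called lower and 5.1% higher (10.2% in either direction). At an unadjusted p below 0.05 the edgeR counts were again 5 and 0, where 11.7% of all genes were lower and 13.6% higher. DESeq2 after adjustment also gave 5 and 0, where it called 7.42% of all genes lower and 7.81% higher. The CPM ranges of the genotypes did not overlap, with Opa1cKO lower, for 4 of these 9 and for 3.64% of all tested genes; no range lay wholly higher among the 9, against 2.77% of all (6.41% in either direction). Without the 4 sex-mismatched libraries 2 of the 9 were lower, Hk2 and Pfkfb3, as were 0.874% of all genes then tested. The median log2 fold change of the 9 was -0.54, beside 0.01 over all tested genes. A gene's lower count in bulk tissue can come from fewer cells that express it or from less RNA per cell, and these cannot be told apart here.

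**Figure D1:**
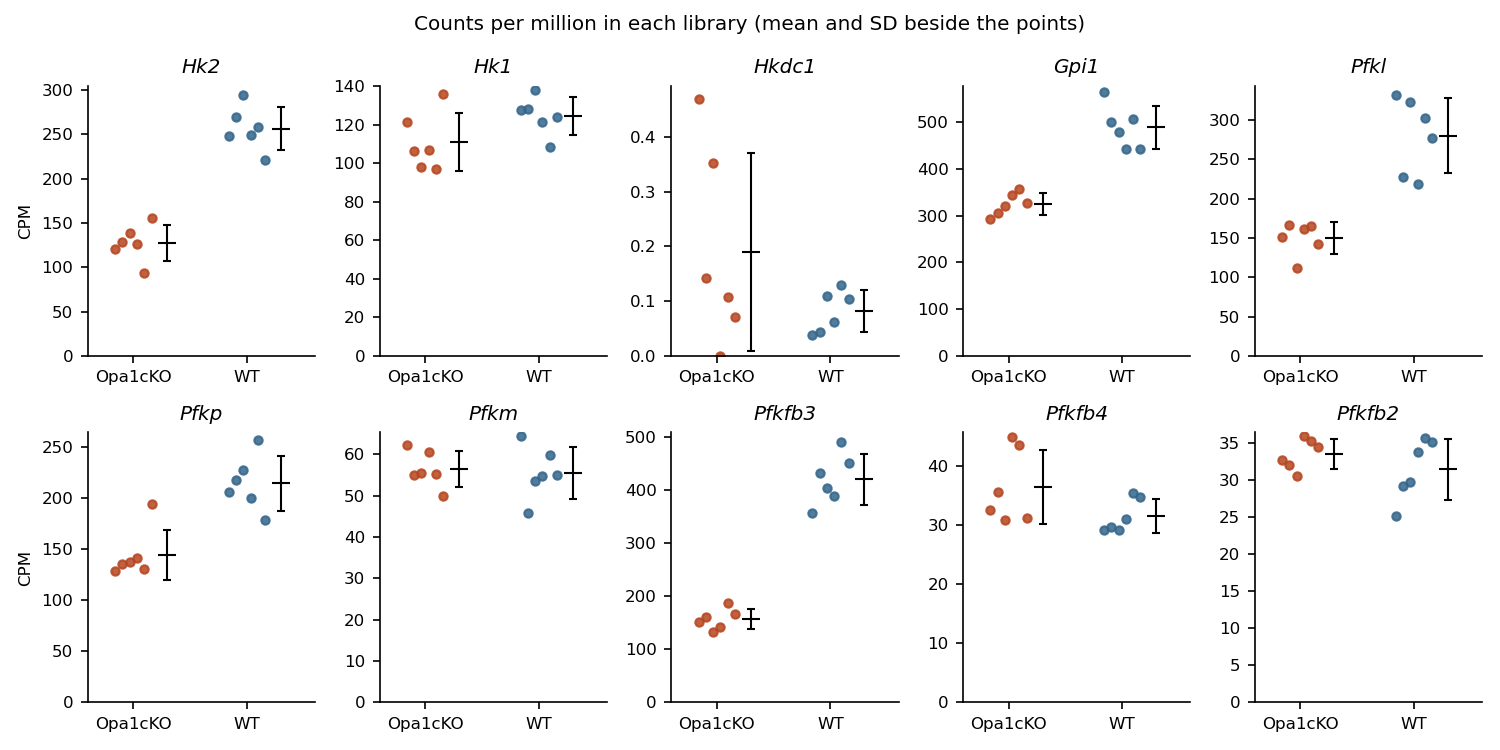
Scaled counts (CPM, vertical axes from 0, each with its own scale) of the 10 genes in 6 Opa1cKO and 6 WT libraries; each point is a library and the bar beside it the mean and SD. Points of the genotypes do not overlap for Hk2, Gpi1, Pfkl and Pfkfb3, and Pfkp overlaps through Opa1cKO 6 alone.

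Among the PFKFB genes, Pfkfb3 (ENSMUSG00000026773, chromosome 2, 11471433 to 11554077, minus strand of mm10) encodes the isoform whose kinase activity far exceeds its phosphatase activity. It stood at 132, 156 and 187 CPM (lowest, median and highest) in Opa1cKO libraries, against 356, 417 and 490 CPM in WT libraries. Every Opa1cKO library was below every WT library, with a wide gap. The log2 fold change was -1.42 (SE 0.106, edgeR adjusted p = 3.45e-06), the 11th smallest p of all tested genes; 189 tested genes (1.24%) had a lower fold change. It was at -1.17 without the 4 sex-mismatched libraries (edgeR adjusted p = 0.00894).

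Pfkfb4 (ENSMUSG00000025648, chromosome 9, 108991778 to 109032228, plus strand), an isoform abundant in testis and induced by hypoxia in many cells, did not pass the test. It stood at 30.8, 34.0 and 44.8 CPM in Opa1cKO, against 29.1, 30.4 and 35.3 CPM in WT. Opa1cKO 4 and 5, at 44.8 and 43.5 CPM, and by a small margin Opa1cKO 2 were above every WT library, and the other Opa1cKO libraries lay among the WT values. Its log2 fold change was 0.18 (SE 0.114, edgeR adjusted p = 0.339). It was at 0.05 without Opa1cKO 5 and at 0.35 without the 4 sex-mismatched libraries, and passed in neither (edgeR adjusted p = 0.818 and 0.246).

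Pfkfb2 (ENSMUSG00000026409, chromosome 1, 130689182 to 130729253, minus strand), the isoform best known from heart, stood at 30.6, 33.7 and 35.9 CPM in Opa1cKO, against 25.2, 31.8 and 35.7 CPM in WT. Opa1cKO 4 was just above the highest WT library, and the other Opa1cKO values lay within the WT range. Its log2 fold change was 0.07 (SE 0.0949, edgeR adjusted p = 0.713). With single libraries left out it ran from 0.02, without Opa1cKO 5, to 0.11, without WT 5, and it was at 0.32 without the 4 sex-mismatched libraries (edgeR adjusted p = 0.204). Exons of Pfkfb2 share 154 bases of 7254 with Yod1 on the opposite strand. They share 1262 with Gm29427 on the same strand, which has no entry in the count table.

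The 3 genes differed in how their counts were divided. Pfkfb3 held 63.8%, 70.1% and 71.6% of the family's counts (lowest, median and highest) in Opa1cKO, against 85.7%, 87.0% and 88.0% in WT. Its share was lower in 6 of 6 Opa1cKO libraries than in any WT library, and averaged 69.0 ± 2.80% in Opa1cKO and 86.9 ± 0.787% in WT (SD, n = 6 each, two-sided exact permutation p = 0.00216, adjusted p = 0.00325 over the 9 shares tested). This p is the smallest that 6 against 6 libraries allow, and the shares of a family sum to 100%, so they are not independent. Pfkfb4 held 16.1 ± 2.22% in Opa1cKO and 6.55 ± 0.395% in WT, and Pfkfb2 14.9 ± 1.06% in Opa1cKO and 6.53 ± 0.539% in WT, both again without overlap (exact permutation adjusted p = 0.00325 each). The larger shares of Pfkfb4 and Pfkfb2 thus stood beside CPM values that did not pass the test. Without the 4 sex-mismatched libraries the Pfkfb3 share differed by -17.2 percentage points (exact permutation adjusted p = 0.0268).

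**Figure D2:**
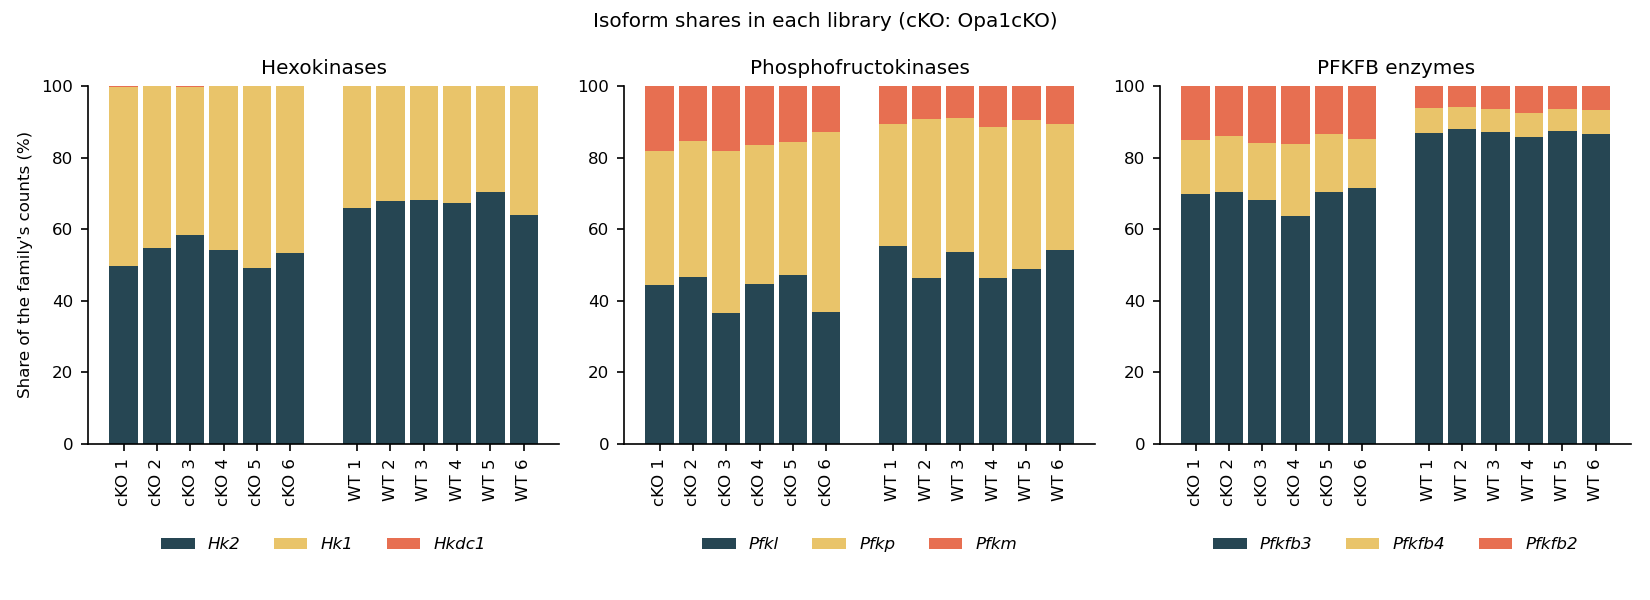
Share of each family's counts (%, stacked to 100) in each library, Opa1cKO (cKO) at the left and WT at the right of each panel. The dark block at the bottom (Hk2, Pfkl, Pfkfb3) is lower in every Opa1cKO library for hexokinases and PFKFB enzymes, while for Pfkl the highest Opa1cKO share, 47.1%, passes the lowest WT share, 46.2%.

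Levels can be set against each other between genes only per length, for which the authors' TPM values (scaled by transcript length and library size) were used. Pfkfb3 averaged 95.6 ± 12.8 TPM in Opa1cKO and 253 ± 33.2 TPM in WT, Pfkfb4 34.4 ± 5.47 TPM in Opa1cKO and 29.5 ± 3.19 TPM in WT, and Pfkfb2 21.4 ± 1.495 TPM in Opa1cKO and 19.9 ± 3.18 TPM in WT (SD, n = 6 each). The order Pfkfb3, Pfkfb4, Pfkfb2 was the same in both genotypes, and each gene was above the next in all 12 libraries. Summed over the family the level was 124 to 173 TPM in Opa1cKO and 240.4 to 358 TPM in WT. Pfkfb1, the liver isoform, averaged 3.37 ± 1.28 TPM in Opa1cKO and 2.53 ± 0.525 TPM in WT, and its log2 fold change of 0.54 did not pass (SE 0.229, edgeR adjusted p = 0.157).

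Among the hexokinases, Hk2 (ENSMUSG00000000628, chromosome 6, 82725025 to 82774454, minus strand) encodes the inducible isoform of muscle, fat and tumours, which can dock on the outer mitochondrial membrane. It stood at 93.9, 127 and 156 CPM in Opa1cKO, against 221, 253 and 295 CPM in WT. The highest Opa1cKO library, Opa1cKO 6, was below the lowest WT library, WT 6. The log2 fold change was -0.99 (SE 0.119, edgeR adjusted p = 0.000207), and 400 tested genes (2.63%) had a lower one. It was at -1.12 without the 4 sex-mismatched libraries (edgeR adjusted p = 0.0280).

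Hk1 (ENSMUSG00000037012, chromosome 10, 62268855 to 62379908, minus strand), the isoform that most tissues express constitutively and that also docks on mitochondria, did not pass. It stood at 97.2, 107 and 136 CPM in Opa1cKO, against 109, 126 and 138 CPM in WT. Opa1cKO 2, 3, 4 and 5 were below every WT library, Opa1cKO 1 lay among the lower WT values and Opa1cKO 6 near the top of the WT range. The log2 fold change was -0.12 (SE 0.0930, edgeR adjusted p = 0.436), and with single libraries left out it ran from -0.22 to -0.04.

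Hkdc1, a hexokinase-like gene, lies 3228 bases from Hk1 on the same strand (ENSMUSG00000020080, chromosome 10, 62383137 to 62422491) and was barely detected. It had 23, 7, 20, 0, 4 and 3 counts in Opa1cKO 1 to 6 and 2, 2, 5, 3, 6 and 5 counts in WT 1 to 6. Opa1cKO 1 and 3 were above every other library, and the rest of both genotypes had at most 7 counts. It did not pass the filter on low counts, and with no filter its log2 fold change was 0.78 (edgeR adjusted p = 0.625). Hk3, the hexokinase of leukocytes, was also low, at 0 to 19 counts in Opa1cKO and 1 to 21 in WT.

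Hk2 held 49.1%, 53.7% and 58.5% of hexokinase counts (lowest, median and highest) in Opa1cKO, against 64.04%, 67.5% and 70.3% in WT, and Hk1 held nearly all of the rest. The Hk2 share averaged 53.2 ± 3.47% in Opa1cKO and 67.2 ± 2.11% in WT (SD, n = 6 each, two-sided exact permutation adjusted p = 0.00325), and it was lower in 6 of 6 Opa1cKO libraries. In Opa1cKO 1 and 5 Hk1 had more counts than Hk2, which no WT library showed. Per length Hk2 averaged 98.5 ± 17.8 TPM in Opa1cKO and 196 ± 20.7 TPM in WT, and Hk1 60.2 ± 9.86 TPM in Opa1cKO and 66.5 ± 4.92 TPM in WT, so that Hk2 was the higher of the pair in all 12 libraries on that scale. The Hk2 share differed by -14.2 percentage points without the 4 sex-mismatched libraries (exact permutation p = 0.0179, adjusted p = 0.0268). That p is again the smallest that 5 against 3 libraries allow.

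Gpi1 (ENSMUSG00000036427, chromosome 7, 34201330 to 34230336, minus strand) is the only gene of its step and catalyses a reversible reaction. It stood at 293, 324 and 357 CPM in Opa1cKO, against 442, 489.8 and 564 CPM in WT, with no overlap. Expressed as a log2 fold change this was -0.56 (SE 0.0865, edgeR adjusted p = 0.00135). Without the 4 sex-mismatched libraries it was at -0.59 and no longer passed (edgeR adjusted p = 0.0632), and within the 8 libraries that sex-linked reads show as female (3 Opa1cKO and 5 WT) it was at -0.54 and passed (edgeR adjusted p = 0.0188). Its exons share 741 of 6452 bases with Gm26762 on the opposite strand, which has no entry in the count table. Those of Hk1 share 157 of 8532 with Hk1os and those of Pfkm 18 of 3340 with Senp1, also opposite. Exons of Pfkm also share 341 bases with Gm26513 on the same strand, which averaged 1.88 CPM in Opa1cKO and 1.80 CPM in WT.

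Phosphofructokinase works as a tetramer built from the liver, muscle and platelet subunits Pfkl, Pfkm and Pfkp. Pfkl (ENSMUSG00000020277, chromosome 10, 77986947 to 78010083, minus strand) stood at 112, 157 and 166 CPM in Opa1cKO, against 219, 289.8 and 332 CPM in WT. The groups did not overlap, and WT 2 and 4 were the lowest of the WT libraries. Its log2 fold change was -0.91 (SE 0.135, edgeR adjusted p = 0.00107). It was at -0.94 without the 4 sex-mismatched libraries (edgeR adjusted p = 0.0613) and at -0.90 within libraries female by sex-linked reads (edgeR adjusted p = 0.00610).

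Pfkp (ENSMUSG00000021196, chromosome 13, 6579768 to 6648777, minus strand) stood at 128, 137 and 194 CPM in Opa1cKO, against 179, 212 and 257 CPM in WT. Opa1cKO 6 alone lay within the WT range, and the other Opa1cKO libraries were at 141 CPM or below. The log2 fold change was -0.54 (SE 0.117, edgeR adjusted p = 0.0106), and -0.69 without Opa1cKO 6 (edgeR adjusted p = 0.00158). The call was lost without the 4 sex-mismatched libraries (-0.42, edgeR adjusted p = 0.195) and within libraries female by sex-linked reads (-0.49, edgeR adjusted p = 0.0806). Exons of Pfkp share 748 of 13401 bases with Pitrm1 on the opposite strand, which averaged 49.1 CPM in Opa1cKO and 47.8 CPM in WT.

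Pfkm (ENSMUSG00000033065, chromosome 15, 98092589 to 98132451, plus strand) stood at 50.0, 55.4 and 62.2 CPM in Opa1cKO, against 45.7, 54.8 and 64.3 CPM in WT. All Opa1cKO values lay within the WT range, and the log2 fold change was -0.01 (SE 0.0881, edgeR adjusted p = 0.945). Pfkm is the main subunit of skeletal muscle, and the 9 muscle markers listed summed to 3.96 to 28.9 CPM in Opa1cKO and 3.78 to 26.8 CPM in WT, highest in Opa1cKO 4 and WT 5. Of the 7 tested none passed with edgeR or DESeq2, and none had an unadjusted edgeR p below 0.05.

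**Figure D3:**
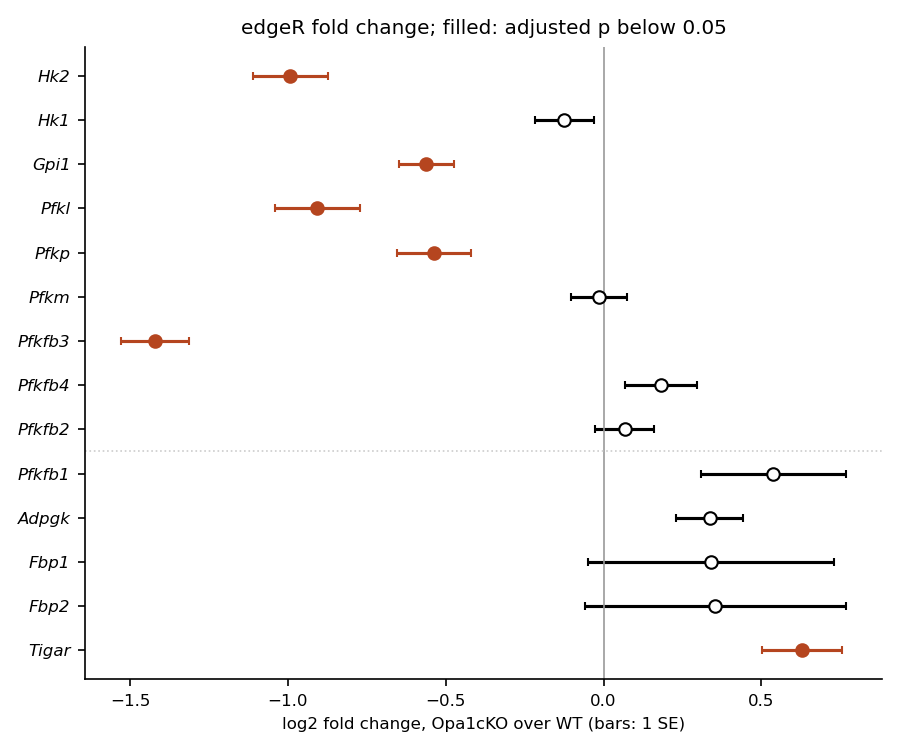
Log2 fold change of Opa1cKO over WT (points) with 1 SE (bars) for the 9 tested genes above the dotted line and for related genes below it; filled points passed at an adjusted p below 0.05. Pfkfb3 lies farthest left at -1.42, Hk1, Pfkm, Pfkfb4 and Pfkfb2 lie near 0, and Tigar is the only filled point at the right.

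The subunit shares moved unevenly. Pfkm held 12.9%, 16.2% and 18.2% of phosphofructokinase counts (lowest, median and highest) in Opa1cKO, against 8.88%, 10.2% and 11.6% in WT. Its share was higher in 6 of 6 Opa1cKO libraries, averaging 16.2 ± 1.98% in Opa1cKO and 10.1 ± 1.02% in WT (SD, n = 6 each, two-sided exact permutation adjusted p = 0.00325). The Pfkl share averaged 42.6 ± 4.70% in Opa1cKO and 50.7 ± 4.07% in WT, with overlap (exact permutation p = 0.0130, adjusted p = 0.0167), and did not pass without the 4 sex-mismatched libraries (-9.37 percentage points, exact permutation adjusted p = 0.0918). The Pfkp share was 41.2 ± 5.33% in Opa1cKO and 39.2 ± 4.17% in WT, a difference within the spread of the libraries (exact permutation p = 0.500).

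On the scale of TPM, Pfkl averaged 104 ± 15.2 TPM in Opa1cKO and 190.4 ± 28.4 TPM in WT, Pfkm 77.9 ± 5.42 TPM in Opa1cKO and 75.6 ± 7.82 TPM in WT, and Pfkp 49.9 ± 9.97 TPM in Opa1cKO and 73.0 ± 10.1 TPM in WT. In WT, Pfkm and Pfkp were at levels that differed by less than their spread. In Opa1cKO, Pfkm was above Pfkp in all 6 libraries. The Pfkm share of the family's TPM was 33.8 ± 3.17% in Opa1cKO and 22.4 ± 1.97% in WT, a difference of 11.4 percentage points beside 6.06 in counts (exact permutation adjusted p = 0.00278). Shares of TPM for Pfkl did not overlap between genotypes, at 44.6 ± 3.90% in Opa1cKO and 56.0 ± 3.39% in WT (exact permutation adjusted p = 0.00278).

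**Figure D4:**
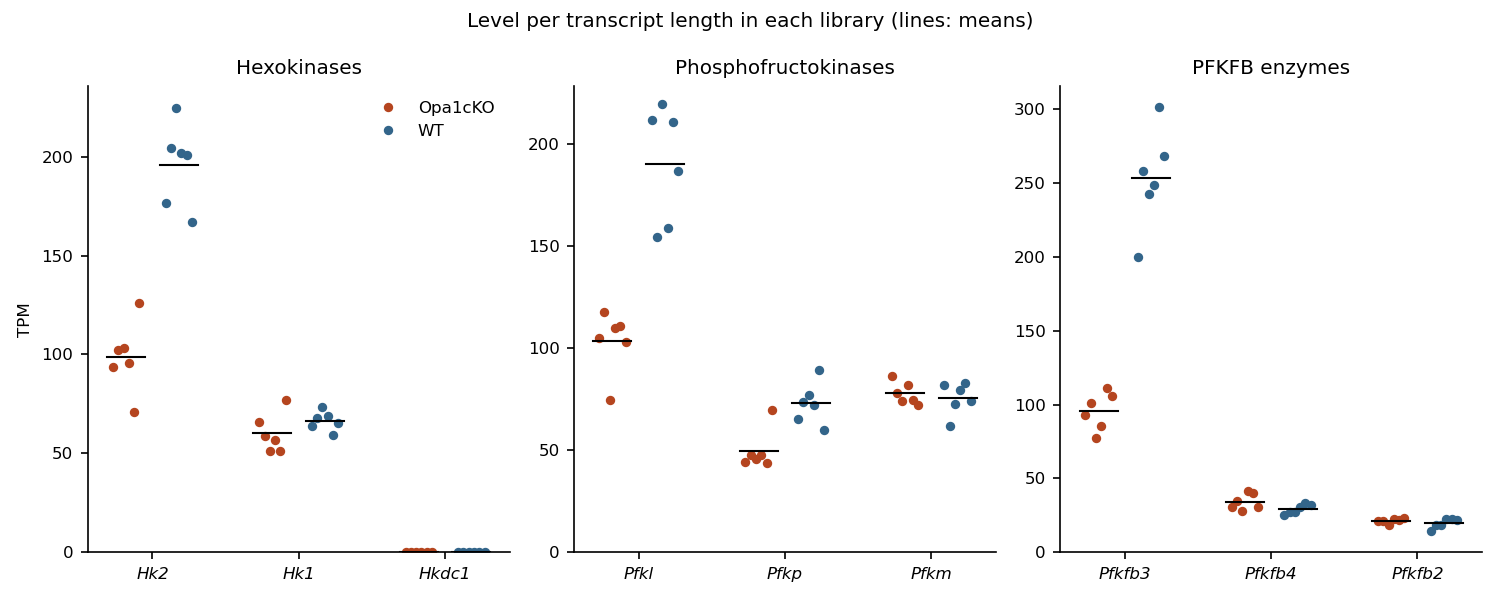
TPM (vertical axes from 0) of each isoform in the 3 families, 6 Opa1cKO libraries (left of each pair) and 6 WT libraries (right); lines are means. Hk2, Pfkl and Pfkfb3 are the highest of their families in WT and show the widest gap between genotypes, and Hkdc1 is near 0.

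Genes that oppose or bypass these steps were mostly low. The gluconeogenic phosphatase genes Fbp1 and Fbp2 did not pass, with Fbp1 at 0.215 to 1.24 CPM in Opa1cKO and 0.355 to 0.464 CPM in WT and Fbp2 at 0.330 to 0.967 CPM in Opa1cKO and 0.209 to 0.738 CPM in WT (edgeR adjusted p = 0.633 and 0.642). Tigar, which encodes a phosphatase related to that of the PFKFB enzymes and known as a brake on glycolysis, rose to 8.12, 9.06 and 10.6 CPM (lowest, median and highest) in Opa1cKO, against 4.84, 6.07 and 6.72 CPM in WT. The groups did not overlap, and the log2 fold change was 0.63 (SE 0.127, edgeR adjusted p = 0.00713). At 0.65 it did not pass without the 4 sex-mismatched libraries (edgeR adjusted p = 0.119). Adpgk, a hexokinase-like enzyme of the endoplasmic reticulum that uses ADP, was at 0.34 (SE 0.107, edgeR adjusted p = 0.0606) and did not pass.

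In the rest of glycolysis, from the glucose transporters to lactate export, 9 of 19 tested genes fell and none rose with edgeR. Over all tested genes 5.13% were called lower and 5.1% higher. The median log2 fold change of the 19 was -0.57. At an unadjusted edgeR p below 0.05 the counts were 11 and 1 (11.7% and 13.6% of all genes). DESeq2 called 10 lower and 1 higher (7.42% and 7.81% of all genes). Leaving out the 4 sex-mismatched libraries, 8 fell and none rose (0.874% and 1.2% of all genes then tested). The 3 with the smallest p were the lactate exporter Slc16a3 at -1.64, enolase Eno1 at -1.06 and triose phosphate isomerase Tpi1 at -0.96 (edgeR adjusted p = 3.48e-05, 4.68e-05 and 0.000337). The median of 19 genes of the side branches that draw on glucose phosphate and fructose phosphate was 0.01, the value of all genes. Of these 19, 3 fell and 2 rose with edgeR (5.13% and 5.1% of all genes). Those that fell were the glycogen synthase gene Gys1 at -0.79, the endoplasmic reticulum transporter Slc37a4 at -0.45 and Pgd of the pentose phosphate pathway at -0.26 (edgeR adjusted p = 7.29e-05, 0.0107 and 0.0465). Taldo1, also of that pathway, and Pgm3, of hexosamine synthesis, rose by 0.64 and 0.42 (edgeR adjusted p = 0.0226 and 0.0358). Leaving out the 4 sex-mismatched libraries, 1 of the 19, Gys1, was called lower and none higher (0.874% and 1.2% of all genes then tested).

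Among regulators of these enzymes the counts differed by list. Over all tested genes edgeR called 5.13% lower and 5.1% higher, and DESeq2 called 7.42% and 7.81%. At an unadjusted edgeR p below 0.05 these shares were 11.7% and 13.6%. Of 5 genes of the glucose phosphate sensors and their targets, Mlxip, also called MondoA, rose by 0.56 (edgeR adjusted p = 0.00754) and none fell, though DESeq2 called 2 lower and 2 were lower at an unadjusted edgeR p below 0.05; Txnip, a known Mlxip target, was at -0.55 (edgeR adjusted p = 0.106). Of 14 kinases and degradation factors that act on PFKFB proteins, edgeR called 1 higher and none lower. It was Prkag2, a gamma subunit of the energy sensor AMPK, at 0.51 (edgeR adjusted p = 0.00844). DESeq2 called 2 of the 14 higher and none lower. At an unadjusted edgeR p below 0.05, 2 were higher and 1 was lower. Without the 4 sex-mismatched libraries Prkag2 was at 0.37 and did not pass (edgeR adjusted p = 0.175), while Mlxip was at 0.72 and passed (edgeR adjusted p = 0.0320). None of 6 genes of hexokinase docking, the VDAC channels among them, passed with edgeR, while 3 had an unadjusted p below 0.05, as had 25.2% of all genes, and DESeq2 called 1 lower. Of 9 tested hypoxia-inducible factor and hydroxylase genes 4 fell and 1 rose with edgeR (5.13% and 5.1% of all genes). DESeq2 called 4 lower and 2 higher, the same counts as at an unadjusted edgeR p below 0.05. The oxygen-sensing hydroxylase genes Egln3 and Egln1 were at -2.48 and -1.08 (edgeR adjusted p = 1.42e-06 and 2.21e-06). Hif3a was at -1.41, Vhl at -0.39 and Hif1a at 0.58 (edgeR adjusted p = 0.00258, 0.0348 and 0.00130). Without the 4 sex-mismatched libraries 2 of the 9 were called lower and none higher (0.874% and 1.2% of all genes then tested).

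Within genotypes the genes were correlated upwards as often as downwards. After removal of the genotype means, 18 of the 36 pairs among the 9 tested genes had a correlation above 0 over the 12 libraries, with a median Pearson r of 0.01. The highest were Hk2 with Pfkp at 0.69 and Pfkfb2 with Pfkfb3 and Pfkfb4 at 0.63 each, and the lowest was Hk2 with Pfkfb4 at -0.66. These values describe 12 libraries that share the same depth scaling. Opa1cKO 6 was the highest Opa1cKO library for both Hk2 and Pfkp (156 and 194 CPM), and no correlation was computed without it. Of 9037 named genes with a mean of at least 10 CPM, those with residuals most like Hk2 were Arhgap44, C4b and Mars (r from 0.90 to 0.94), those most like Pfkfb3 were Cdk2, Cdan1 and Nxf1 (0.88 to 0.89), and those most like Pfkfb4 were Cry2, Pramef8 and Helz2 (0.93 to 0.94). Of these 9, Arhgap44 alone passed the test of genotype, and it was higher in Opa1cKO (log2 fold change 0.89, edgeR adjusted p = 0.00532), the direction opposite to that of Hk2. As the highest among 9037 genes over only 12 libraries, these correlations can be high through selection alone. Sex was not removed from the residuals, and no correlation was tested.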

How the data were processed

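RNA of 12 caudal nucleus pulposus samples (6 Opa1cKO, 6 WT, 1 mouse each) was analysed. The authors deposited whole-number read counts per gene, aligned with STAR 2.7.11b to mm10, per the submitters' processing notes. For the counter, annotation and strand option the sources used here give nothing, so reads of overlapping genes cannot be assigned. The authors also deposited TPM values, used for levels per length, whose gene lengths are unknown here. Per the labels, 50 ng of RNA went through a stranded ribosomal depletion kit and 14 PCR cycles, so PCR copies cannot be told from separate molecules.

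The genotype test was edgeR 4.0.16 in R 4.3.3, after filterByExpr (minimum count 10) and TMM scaling, as a quasi-likelihood model (robust) holding genotype and labelled sex for the 12 libraries, with Benjamini-Hochberg adjustment over 15229 genes. Log2 fold changes are Opa1cKO over WT. Isoform shares are percentages of the counts of Hk1, Hk2 and Hkdc1, of Pfkl, Pfkm and Pfkp, or of Pfkfb2, Pfkfb3 and Pfkfb4, compared by two-sided exact permutation over libraries. Alternatives used DESeq2 1.42.0 and limma 3.58.1 (TPM pseudocounts of 1 and 0.1). The edgeR and DESeq2 fits and the permutation test were checked on simulated data, and the limma fits were not. Positions come from GENCODE M21 (mm10), promoters from RefSeq (GRCm38.p6).

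The genes and lists were chosen with earlier results of these data known. Named were the 10 genes, Opa1, 6 paralogs or opposing enzymes (others of the rule are not reported here), up to 3 called genes per list by p and 3 genes of similar pattern for Hk2, Pfkfb3 and Pfkfb4; further genes, such as Txnip, Egln1 or Vhl, complete small counts or describe marker lists and were named after their values were seen.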

Additional observations from a re-analysis of the deposited data

Results flagged for a closer look

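In 3 of 50 groups of 6 values checked, 1 library stood apart from the other 5 of its genotype by a gap larger than 0.625 of the whole range, where chance gives about 1 in 20. Each was the highest value of its group, and each was Opa1cKO 6. Pfkp was at 194 CPM in Opa1cKO 6, against 128 to 141 CPM in the other Opa1cKO libraries. Adpgk was at 31.2 CPM in Opa1cKO 6, against 20.0 to 24.1 CPM. Fbp1 was at 1.24 CPM in Opa1cKO 6, against 0.215 to 0.388 CPM.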

How the results depend on the processing

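With 5 genes lower and none higher at the main settings, the counts for the 9 tested genes were the same with any 1 library left out, with no sex covariate, with sex as reads show it, under DESeq2, other scalings, no filter and TPM. In the following settings fewer were lower. Without the 4 sex-mismatched libraries 2 were lower, Hk2 and Pfkfb3 (over all genes 137, 0.874%, lower and 188, 1.2%, higher). Within libraries female by sex-linked reads, an alternative chosen after seeing the data, 4 were lower. Over all genes 546 (3.5%) were then lower and 561 (3.59%) higher. With the replicate block 4 were lower (over all genes 418, 2.74%, lower and 351, 2.3%, higher). Pfkp, at -0.54, did not pass there (edgeR adjusted p = 0.0661). Same-numbered libraries did not vary together (r of deviations -0.22 to 0.04), so the numbers do not pair them. Over all genes, calls were 777 higher and 781 lower; DESeq2 gave 1189 higher, TPM without a filter 436 higher, and leaving out 1 library 323 to 1002 higher and 496 to 1008 lower, the fewest without Opa1cKO 6, with 463 and 510 without WT 6. No scaling moved the median of all genes by 0.1.

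Pfkm, not called anywhere, changed sign: 0.0239 with no sex covariate, 0.0136 with sex as reads show it, 0.0104, 0.0105 and 0.0104 under the TPM settings, and -0.0487 to 0.0295 with 1 library left out. The Pfkl share difference no longer passed without the 4 libraries (-9.37 points), under the replicate block (-8.05, exact sign-flip adjusted p = 0.0804) and within female libraries (-8.78, exact permutation adjusted p = 0.0689). The Pfkp share difference turned to -0.0393 points in TPM. The Hkdc1 share difference ran from 0.0363 to 0.0751 points with 1 library left out and passed without Opa1cKO 4 or Opa1cKO 6. The causes were not tested. Hkdc1 and Hk3 are at the limit of detection at this depth.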
